A study of Mus musculus with 12 samples.

Results

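The 10 genes described here handle iron in the liver: the hepcidin genes Hamp and Hamp2, the iron sensors Tfr2 and Hfe, the plasma carrier Trf, the uptake genes Tfrc and Slc39a14, the ferritin genes Fth1 and Ftl1, and the exporter Slc40a1. They were chosen by name from the 48440 genes of the deposited count tables, not by their values. Of the 10, 9 were found by symbol, and Fth1, listed there as Fth1_2, was found by its gene identifier (ENSMUSG00000024661). Liver mRNA was sequenced from 8-week-old male C57BL/6 mice fed chow in a cycle of 12 h light and 12 h dark. Wild-type mice (WT) and transgenic mice overexpressing E4BP4 in the liver (TG) were each sampled at ZT2, 2 h after lights on, and at ZT14, 2 h after lights off, with 3 libraries per group and 12 in all. E4BP4 is the product of Nfil3, a transcriptional repressor under control of the circadian clock. Background strain, sex, age and diet were common to the 4 groups. The promoter that drives the transgene is not given in the sources used here. No label states that the libraries of a group came from separate animals, so p-values measure the spread between these libraries, which may be partly technical.

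Hepcidin is a peptide hormone that hepatocytes secrete. It binds ferroportin, the iron exporter encoded by Slc40a1, and causes its degradation, so that less iron enters plasma from macrophages, hepatocytes and the gut. Hepatocytes set Hamp transcription through a BMP and SMAD pathway, to which the transferrin receptor Tfr2 and the MHC class I-like protein HFE feed information on iron-loaded transferrin, and through IL-6 and STAT3 in inflammation. Mice carry a second, closely related gene, Hamp2, whose peptide is not known to act on ferroportin as hepcidin does. Inside cells, iron regulatory proteins (IRPs) bind hairpins called iron-responsive elements (IREs) when iron is scarce. In the 5′ UTR of ferritin and ferroportin mRNA this blocks translation, and in the 3′ UTR of Tfrc mRNA it slows decay.

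The hairpins are shown because they divide the 10 genes by mode of control. In the GRCm38 transcripts of GENCODE M21, a C, 5 bases, CAGTGN and 5 bases pairing with the first 5, G-T pairs allowed, were sought on the transcript strand. Matches lay in 294 of 21901 protein-coding genes (1.34%) and in 4 of the 10 genes, in the UTR known to carry the element: once each in Fth1, Ftl1 and Slc40a1 and 4 times in Tfrc. The CAGTGN loop is in capitals.
Fth1 5′ UTR, chr19:9982733-9982759, plus strand: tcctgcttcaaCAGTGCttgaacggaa
Ftl1 5′ UTR, chr7:45459780-45459806, minus strand: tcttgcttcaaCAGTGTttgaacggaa
Slc40a1 5′ UTR, chr1:45925466-45925492, minus strand: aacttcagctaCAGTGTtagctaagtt
Tfrc 3′ UTR, chr16:32631220-32631246, plus strand: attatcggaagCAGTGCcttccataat
Tfrc 3′ UTR, chr16:32631599-32631625, plus strand: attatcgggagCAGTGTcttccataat
Tfrc 3′ UTR, chr16:32631664-32631690, plus strand: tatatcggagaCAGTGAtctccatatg
Tfrc 3′ UTR, chr16:32631711-32631737, plus strand: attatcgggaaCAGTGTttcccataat
A match to these letters is a description and not a measured binding site, and mRNA levels do not report translation.

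The hepcidin promoters are shown because Hamp and Hamp2 are near copies of each other. Over the RefSeq windows of GRCm38.p6, which run from 250 bases before to 50 after the annotated start, 276 of 297 aligned bases were identical (92.9%), and the first-numbered GENCODE transcripts of the pair shared 388 of 410 aligned bases (94.6%). The bases before the start site are printed. The first run of capitals is the hexamer at the place of the BMP-responsive element, and the second is a STAT-type match, TTCNNNGAA.
Hamp, chr7:30944030-30944279, minus strand: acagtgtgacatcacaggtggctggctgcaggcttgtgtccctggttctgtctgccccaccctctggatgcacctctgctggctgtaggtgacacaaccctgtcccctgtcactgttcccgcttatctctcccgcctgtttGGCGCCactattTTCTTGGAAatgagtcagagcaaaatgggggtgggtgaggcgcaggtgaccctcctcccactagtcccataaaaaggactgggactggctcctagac
Hamp2, chr7:30924182-30924431, minus strand: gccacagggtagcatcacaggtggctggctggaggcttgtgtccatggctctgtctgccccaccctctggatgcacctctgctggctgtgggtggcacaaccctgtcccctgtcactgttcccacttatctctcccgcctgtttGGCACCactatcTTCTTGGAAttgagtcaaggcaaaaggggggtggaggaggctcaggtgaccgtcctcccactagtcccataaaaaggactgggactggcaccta
The hexamer read GGCGCC from -109 to -104 in Hamp and GGCACC from -106 to -101 in Hamp2, a single substitution, G4A, counted from the 5′ end of the Hamp hexamer. Searched on both strands, GGCGCC was present in 11.9% of 32851 promoter windows and, among 11 windows of 7 of the 10 genes, in 1 window of Hamp and 1 of Tfrc. TTCNNNGAA was present in 8.3% of all windows and in those of Hamp and Hamp2, 3 bases nearer the start in Hamp2. A D-box, the site type bound by E4BP4 (TTATGTAA or TTACGTAA), was present in 1.06% of all windows and in 0 of the 11. The clock E-box CACGTG was present in 7.15% and in 0 of the 11. Absence from these windows says nothing of sites elsewhere.

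Depth ranged from 16035121 to 23981021 total gene reads per library, and 15244 genes passed a filter on low counts, all 10 iron genes among them. Nfil3 was higher in each of the 6 TG libraries (62.6 to 93.9 CPM, read counts scaled to library size) than in any of the 6 WT libraries (24.6 to 48.8 CPM). Of all tested genes, 12.1% did not overlap between genotypes at ZT2 and 12.4% at ZT14. The 7 hepatocyte markers were abundant in all 12 libraries, with Alb at 41102 to 59386 CPM. Times parted along principal component 1 (33.1% of variance). Component 2 (16.5%) set TG ZT2 replicate 2 and TG ZT14 replicate 3, at 30.8 and 33.2, apart from the other 10 libraries, at -12.1 to -2.0. For the mean of both times, Nfil3 was called by edgeR in each of 12 fits with 1 library left out. That call was lost without the 2 libraries that stood apart (1.07, edgeR adjusted p = 0.0639). Its call at ZT14 was lost in 8 of 12 such fits (adjusted p = 0.0568 to 0.217 by edgeR). At ZT2 its adjusted p ran from 0.0404 to 0.694 over the edgeR and DESeq2 fits made.

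Per unit of transcript length, plasma protein and storage transcripts stood far above the receptors and transporters. By median deposited TPM, which is corrected for transcript length, over the 12 libraries, Trf stood at 8394, Ftl1 at 5145, Fth1 at 3024 and Hamp at 1873. Most reads of Trf and Ftl1 did not map uniquely, so their places depend in part on how shared reads were counted. Tfr2 followed at 213 TPM and Hamp2 at 78.5 TPM. Slc40a1 (35.7 TPM) and Slc39a14 (33.6 TPM) had overlapping ranges, 24.7 to 59.5 and 22.5 to 47.8 TPM, as did Hfe (23.0 TPM, 20.7 to 28.4) and Tfrc (17.1 TPM, 8.71 to 29.0). Hamp ranged from 610 to 3586 TPM and so overlapped Fth1, at 2423 to 3227 TPM. In bulk liver, fewer cells of a type and less RNA per cell cannot be told apart.

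**Figure D1:**
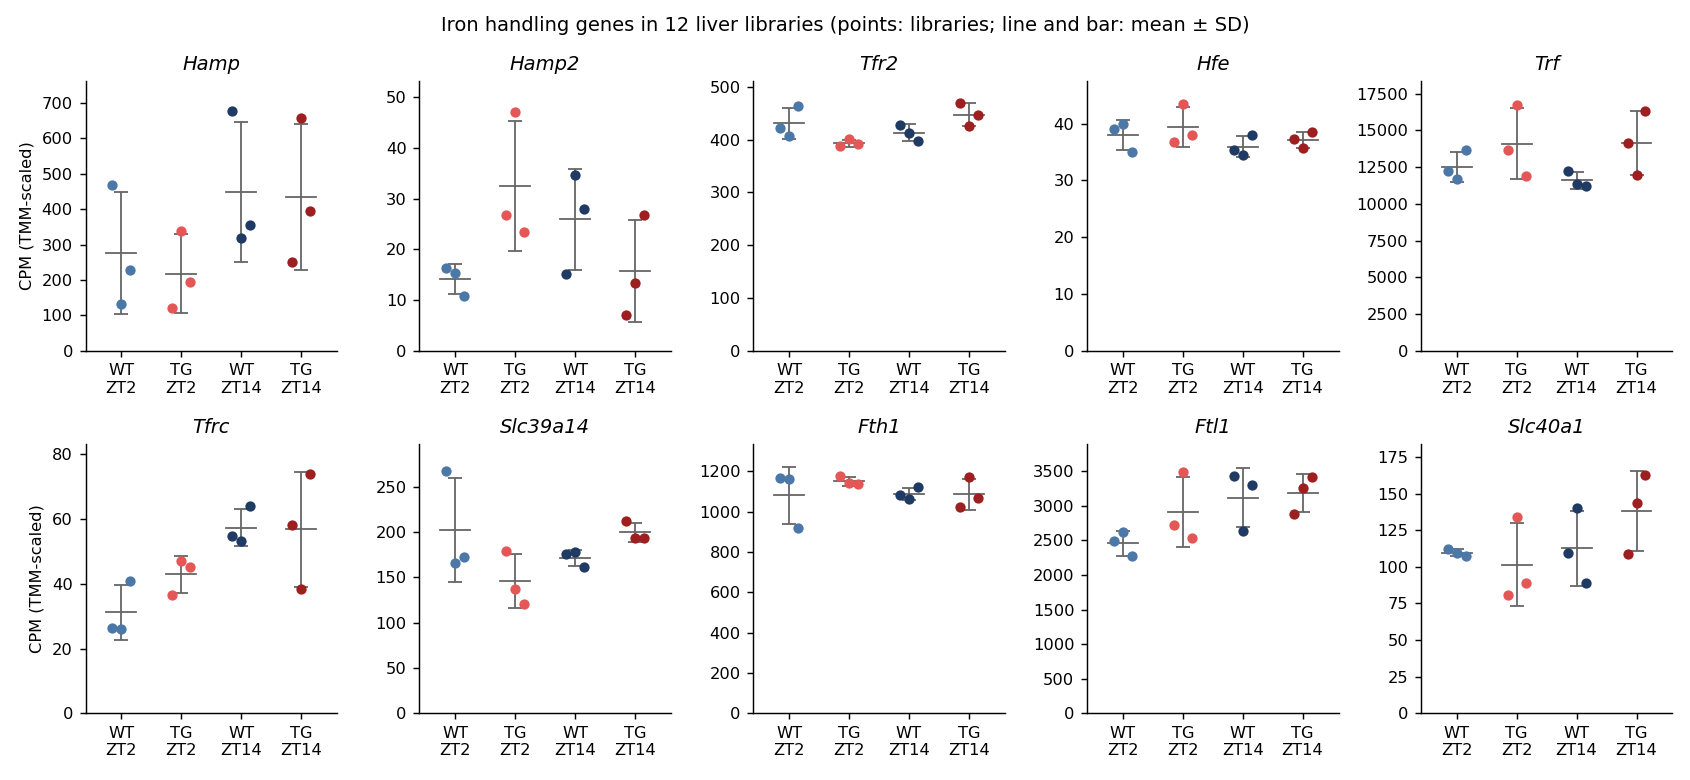
CPM after TMM scaling (y axis, from 0) of the 10 iron genes in the 4 groups (x axis). Points are libraries, 3 per group, and lines with bars are means ± SD. Hamp and Hamp2 spread widely within groups, Tfr2 and Hfe hardly at all, and the 3 WT libraries of Tfrc at ZT14 (53.1 to 63.8 CPM) lie above the 3 at ZT2 (26.1 to 40.8 CPM).

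Hamp spread widely within groups, where the highest library exceeded the lowest by 2.13-fold to 3.51-fold, and the genotypes were not shown to differ. Hamp (chromosome 7, 30942368 to 30944032, minus strand, mm10) was at 467, 133 and 229 CPM for WT ZT2, at 120, 339 and 193 CPM for TG ZT2, at 677, 317 and 355 CPM for WT ZT14, and at 252, 658 and 393 CPM for TG ZT14. Each group overlapped each other group. Group means at ZT2 were 276 ± 172 CPM for WT and 218 ± 111 CPM for TG, and at ZT14 450 ± 198 and 435 ± 206 CPM (SD, n = 3 each). TG against WT gave a log2 fold change at ZT2 of -0.35 (SE 0.49, edgeR adjusted p = 0.921) and at ZT14 of -0.05 (SE 0.49, adjusted p = 0.988). For ZT14 against ZT2 it was 0.70 in WT (SE 0.49, adjusted p = 0.448) and 1.00 in TG (SE 0.50, adjusted p = 0.228). Both genotypes thus had higher means at ZT14, short of the threshold. With the genotypes averaged, a contrast added after the data were seen, the time difference was 0.85 (SE 0.35, adjusted p = 0.106), and without WT ZT2 replicate 1, the highest ZT2 library, it was called (1.15, adjusted p = 0.0326). Over the edgeR and DESeq2 fits made, this averaged difference ran from 0.64 to 1.15 (adjusted p = 0.0261 to 0.251). The standard deviation of log2 CPM within groups was 0.74 for Hamp, at percentile 96.3 of all tested genes, against a median of 0.20.

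Hamp2 (chromosome 7, 30922389 to 30924681, minus strand) did not follow Hamp across the groups. It was at 16.4, 15.3 and 10.7 CPM for WT ZT2 and at 26.8, 47.2 and 23.4 CPM for TG ZT2. At ZT14 it was at 15.1, 34.7 and 27.9 CPM in WT and at 7.08, 13.4 and 26.7 CPM in TG. All 3 TG libraries lay above all 3 WT libraries at ZT2, while at ZT14 the genotypes overlapped. At ZT2, 2 of the 10 genes did not overlap between genotypes, Hamp2 (higher in TG) and Tfr2 (lower), against 12.1% of all tested genes. The log2 fold change of TG against WT was 1.20 at ZT2 (SE 0.43, unadjusted p = 0.0161, adjusted p = 0.602 by edgeR) and -0.71 at ZT14 (SE 0.42, adjusted p = 0.757). Without the 2 libraries that stood apart the values were 0.83 and -1.34. From ZT2 to ZT14 the value was 0.88 in WT (SE 0.43, adjusted p = 0.248) and -1.04 in TG (SE 0.42, adjusted p = 0.137). The difference between these time differences, the interaction, was -1.92 (SE 0.60, unadjusted p = 0.00773, adjusted p = 0.735), larger than for any other of the 10 genes and short of the threshold. The TG time difference was called without TG ZT14 replicate 3 (-1.66, adjusted p = 0.0226) and with no filter beyond 1 read. Over the edgeR and DESeq2 fits made it ran from -1.66 to -0.68 (adjusted p = 0.0226 to 0.385). Within groups Hamp2 lay at percentile 93.8 of spread.

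The balance of the 2 hepcidin genes was examined as the share of Hamp2 in their summed reads, which library scaling cannot alter. The share was 3.38%, 10.3% and 4.47% for WT ZT2, 18.2%, 12.2% and 10.8% for TG ZT2, 2.17%, 9.85% and 7.30% for WT ZT14, and 2.73%, 2.0% and 6.35% for TG ZT14. TG at ZT2 was highest, with 3 libraries above the other 9, and Hamp remained the more abundant gene in every library. By an exact 2-sided permutation test within strata, the log2 ratio of Hamp2 to Hamp reads differed by 0.34 for TG less WT (p = 0.585, adjusted p = 0.585 over the 4 ratio tests made) and by -1.09 for ZT14 less ZT2 (exact permutation p = 0.12, adjusted p = 0.24). The smallest p that the 400 relabellings can give is 0.005. The genotype and time differences are each means over 2 strata, and the strata did not agree. At ZT2 the shares in TG (10.8% to 18.2%) lay above those in WT (3.38% to 10.3%). At ZT14 they overlapped, with the TG range lower (2.0% to 6.35% against 2.17% to 9.85%). From ZT2 to ZT14 the share fell without overlap in TG, while in WT the times overlapped. These p-values therefore do not describe either time or either genotype alone. The genotype difference was -0.0075 without WT ZT14 replicate 1. With uniquely mapped reads the differences were 0.33 and -1.10.

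**Figure D2:**
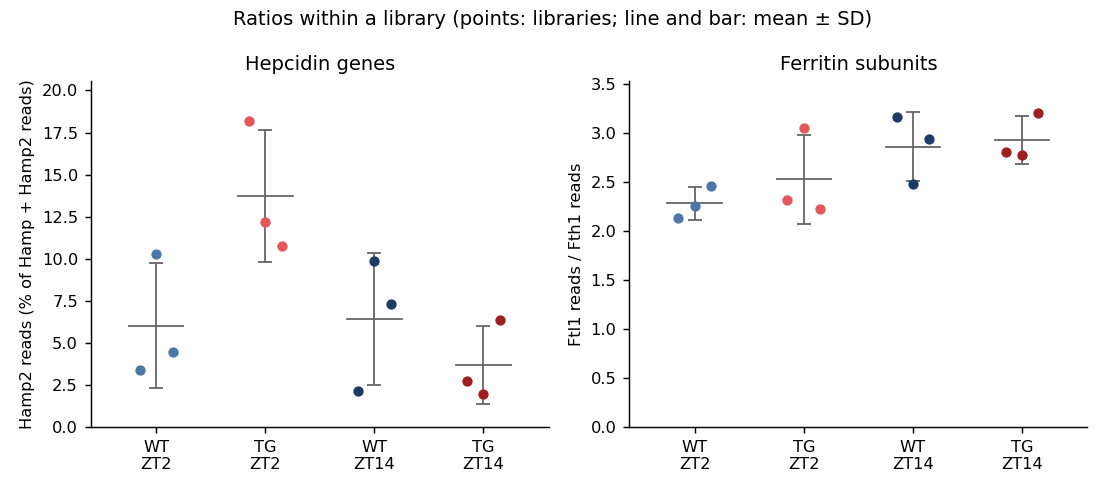
Left, Hamp2 reads as a percentage of Hamp plus Hamp2 reads. Right, Ftl1 reads divided by Fth1 reads. The x axes give the 4 groups, points are libraries and lines with bars are means ± SD (n = 3). The 3 TG libraries at ZT2 hold the highest Hamp2 shares (10.8% to 18.2%), and 6 of 6 ZT14 libraries have an Ftl1 to Fth1 ratio of at least 2.48.

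The iron sensors were the steadiest of the 10 genes. Tfr2 (chromosome 5, 137569840 to 137587481, plus strand), the hepatocyte receptor that registers iron-loaded transferrin, was at 422, 407 and 464 CPM for WT ZT2 and at 387, 401 and 392 CPM for TG ZT2. At ZT14 it was at 429, 413 and 397 CPM in WT and at 469, 426 and 446 CPM in TG. TG was thus just below WT at ZT2, with no overlap, and TG at ZT14 lay above TG at ZT2, also with no overlap. The log2 fold changes were small: -0.13 for genotype at ZT2 (SE 0.08, adjusted p = 0.747 by edgeR), 0.11 at ZT14 (SE 0.08, adjusted p = 0.792) and 0.19 for time in TG (SE 0.08, adjusted p = 0.169). Tfr2 lay at percentile 3.14 of within-group spread. Hfe (chromosome 13, 23702034 to 23710854, minus strand), the partner of Tfr2 that is mutated in hereditary hemochromatosis, stayed between 34.5 and 43.5 CPM in all 12 libraries, at percentile 11.6 of spread. Its genotype differences were within 1 SE of 0 at both times, as was its time difference in WT, and in TG it was -0.09 (SE 0.08, adjusted p = 0.571).

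Trf (chromosome 9, 103204001 to 103230444, minus strand), which encodes transferrin, the carrier that delivers iron to cells, was the most abundant of the 10. It was at 12245, 11691 and 13667 CPM for WT ZT2 and at 13672, 16723 and 11920 CPM for TG ZT2. At ZT14 it was at 12257, 11322 and 11234 CPM in WT and at 14125, 11990 and 16335 CPM in TG. The highest library of each TG group was the one that stood apart, and the genotypes overlapped at both times. The log2 fold change of TG against WT was 0.17 at ZT2 (SE 0.15, adjusted p = 0.842 by edgeR), 0.29 at ZT14 (SE 0.15, adjusted p = 0.732) and 0.23 for the mean of both times (SE 0.11, adjusted p = 0.575). Without the 2 libraries the mean of both times was 0.0997. Time differences were within 1 SE of 0 in both genotypes.

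Tfrc was the only one of the 10 genes called in a planned comparison, and it rose at ZT14 in WT. Tfrc (chromosome 16, 32608920 to 32632794, plus strand) encodes transferrin receptor 1, which takes up iron-loaded transferrin. It was at 26.4, 26.1 and 40.8 CPM for WT ZT2, at 54.8, 53.1 and 63.8 CPM for WT ZT14, at 36.5, 47.0 and 45.0 CPM for TG ZT2 and at 58.1, 38.5 and 73.7 CPM for TG ZT14. All WT libraries at ZT14 lay above those at ZT2, and the TG times overlapped. In WT the mean went from 31.1 ± 8.40 to 57.2 ± 5.76 CPM (SD, n = 3 each), a 1.84-fold rise (log2 fold change 0.88, SE 0.22, edgeR adjusted p = 0.0261). Of all tested genes 9.17% were called in that comparison, 4.85% as higher, so 1 of 10 is near the background. The call was lost without WT ZT2 replicate 1 or 2 or WT ZT14 replicate 1 or 3 (log2 fold change 0.77 to 0.91, adjusted p = 0.0648 to 0.106). In TG the mean went from 42.8 ± 5.60 to 56.7 ± 17.6 CPM, with 0.41 (SE 0.22, adjusted p = 0.267), and the interaction was -0.47 (SE 0.31, adjusted p = 0.899), so the time difference was not shown to differ by genotype. Averaged over genotypes, a contrast added later, it was 0.64 (SE 0.16, adjusted p = 0.0106), called with each library left out, beside 22.5% of all genes called. At ZT2 the difference of TG against WT was 0.46 (SE 0.22, edgeR adjusted p = 0.68), and the genotypes overlapped.

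Erythroid precursors also carry much Tfrc. The summed level of the 10 erythroid and blood markers, of which 7 passed the filter, was 288 to 359 CPM for WT ZT2 and 253 to 282 CPM for WT ZT14, and 265 to 574 and 309 to 449 CPM in TG. Most of the sum came from the globin genes and Alas2, the erythroid enzyme of heme synthesis. The red cell membrane genes Slc4a1 and Epb42 were at 0 to 0.393 CPM, with 3 and 6 libraries at 0. The part of blood cells in the Tfrc level was not tested.

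Slc39a14 (chromosome 14, 70303469 to 70351425, minus strand) encodes ZIP14, the carrier by which hepatocytes take up iron that is not bound to transferrin. It was at 268, 166 and 173 CPM for WT ZT2 and at 179, 138 and 121 CPM for TG ZT2. At ZT14 it was at 176, 178 and 161 CPM in WT and at 212, 193 and 194 CPM in TG. TG lay above WT at ZT14 with no overlap, and TG at ZT14 above TG at ZT2, while at ZT2 the genotypes overlapped. The log2 fold change of TG against WT was -0.47 at ZT2 (SE 0.18, adjusted p = 0.603 by edgeR) and 0.22 at ZT14 (SE 0.17, adjusted p = 0.816). For ZT14 against ZT2 it was -0.24 in WT (SE 0.17, adjusted p = 0.474) and 0.45 in TG (SE 0.18, adjusted p = 0.116), with an interaction of 0.69 (SE 0.25, adjusted p = 0.751). WT ZT2 replicate 1, which also had the highest Hamp of its group, stood far above its group. Without it the value for genotype at ZT2 was -0.22, that for time in WT 0.011, and the time difference in TG was called (0.44, adjusted p = 0.0405). Over the edgeR and DESeq2 fits made, the time difference in TG ran from 0.34 to 0.62 (adjusted p = 0.0392 to 0.332).

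Ferritin, the storage shell, is built from a heavy chain with ferroxidase activity (Fth1) and a light chain that aids mineral formation (Ftl1). Fth1 (chromosome 19, 9982703 to 9985092, plus strand) was steady, at 1166, 1162 and 919 CPM for WT ZT2, 1176, 1141 and 1138 CPM for TG ZT2, 1081, 1062 and 1121 CPM for WT ZT14, and 1023, 1173 and 1066 CPM for TG ZT14. All 4 of its pairwise differences were within 1 SE of 0, and the groups overlapped in each. Ftl1 (chromosome 7, 45457944 to 45459884, minus strand) was at 2488, 2622 and 2267 CPM for WT ZT2, 2724, 3482 and 2531 CPM for TG ZT2, 3426, 2632 and 3293 CPM for WT ZT14, and 2876, 3253 and 3419 CPM for TG ZT14. In WT the 3 ZT14 libraries lay above the 3 ZT2 libraries by 0.34 on the log2 scale (SE 0.14, unadjusted p = 0.035, edgeR adjusted p = 0.173). It was the other of 2 genes, with Tfrc, that did not overlap between times in WT, against 29.3% of all tested genes. At ZT2 the Ftl1 difference of TG against WT was 0.24 (SE 0.14, edgeR adjusted p = 0.732), and the genotypes overlapped. Over the fits made it ran from 0.098 to 0.34.

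The ratio of Ftl1 to Fth1 reads, which is not corrected for length, was 2.13, 2.26 and 2.47 for WT ZT2, 2.32, 3.05 and 2.22 for TG ZT2, 3.17, 2.48 and 2.94 for WT ZT14, and 2.81, 2.77 and 3.21 for TG ZT14. Of Ftl1 reads 25% to 27.7% mapped uniquely, against 99.9% to 100% for Fth1. By uniquely mapped reads Ftl1 (11041 to 23535) lay below Fth1 (17768 to 27775) in each library, so their order depends on the reads counted. By total reads, the ratios of the ZT14 libraries lay above those of the ZT2 libraries except TG ZT2 replicate 2, one of the libraries that stood apart. The log2 ratio was 0.27 higher at ZT14 within genotype (exact 2-sided permutation p = 0.03, adjusted p = 0.12) and 0.09 higher in TG within time (exact permutation p = 0.41, adjusted p = 0.547). Without TG ZT2 replicate 2 the time difference was 0.34 (exact permutation test, adjusted p = 0.02), and without both libraries that stood apart the genotype difference was -0.017.

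Slc40a1 (chromosome 1, 45908068 to 45926523, minus strand) encodes ferroportin, the target of hepcidin. It was at 112, 110 and 107 CPM for WT ZT2, a narrow range, and at 81.1, 134 and 89.2 CPM for TG ZT2. At ZT14 it was at 109, 140 and 88.9 CPM in WT and at 109, 144 and 163 CPM in TG. The genotypes overlapped at both times, and so did the times within each genotype. The log2 fold change was 0.45 for time in TG (SE 0.20, unadjusted p = 0.0458, adjusted p = 0.18 by edgeR) and 0.30 for TG against WT at ZT14 (SE 0.20, adjusted p = 0.785). The other pairwise differences were within 1 SE of 0. Without TG ZT2 replicate 2 the time difference in TG was called (0.68, adjusted p = 0.0465). Over the edgeR and DESeq2 fits made it ran from 0.31 to 0.68 (adjusted p = 0.0465 to 0.457). Kupffer cells, the liver macrophages, also express ferroportin. The summed level of 11 Kupffer and macrophage markers was 464 to 505 CPM for WT ZT2, 397 to 553 CPM for TG ZT2, 411 to 500 CPM for WT ZT14 and 390 to 562 CPM for TG ZT14, with 0 markers at 0 in any library. The highest sum of each TG group fell in the library that stood apart, which was also the highest Slc40a1 library of that group. This was not particular to macrophage markers. These libraries also held the highest sums of their groups for hepatocyte (85137 and 89670 CPM), endothelial, erythroid and lymphocyte markers. Cholangiocyte sums were highest in neither of them, and stellate sums only in TG ZT14 replicate 3. The part of macrophages in the Slc40a1 level was not tested.

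**Figure D3:**
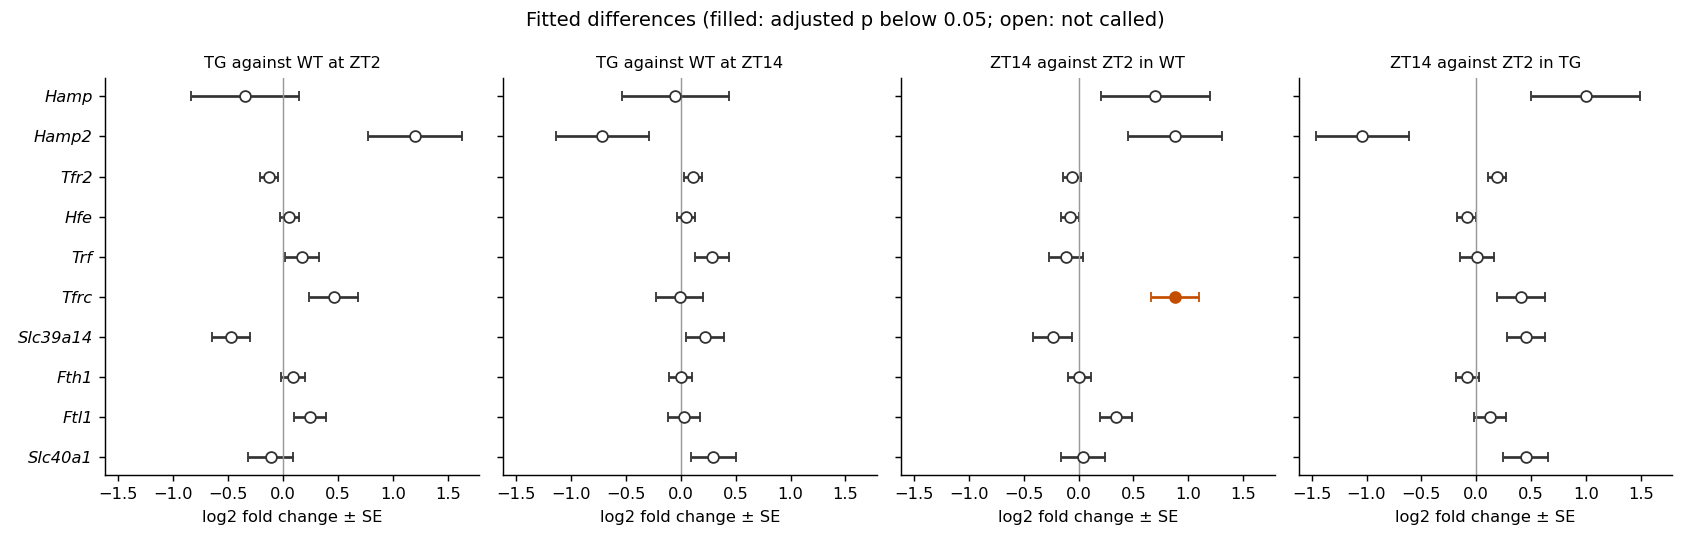
Fitted log2 fold changes (x axis) of the 10 iron genes (y axis) in the 4 pairwise comparisons, with bars of ± SE. The filled point marks an adjusted p below 0.05 by edgeR, and open points were not called. Tfrc in WT (0.88) is the only filled point, and Hamp and Hamp2 have the widest bars (SE 0.42 to 0.50).

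By genotype, 0 of the 10 genes were called at ZT2, where 0.0722% of all tested genes were, 0 at ZT14 (0.0853% of all genes) and 0 for the mean of both times (0.144%). DESeq2 likewise called 0 in each, and 2, 0 and 0 of the 10 had an unadjusted p under 0.05, against 1153, 1053 and 1344 of 15244 genes. The 2 at ZT2 were Hamp2 and Slc39a14. For time, 1 was called in WT and 0 in TG, where 12.2% of all genes were called. DESeq2 called the same numbers. An unadjusted p under 0.05 was found for 2 of the 10 in WT (Tfrc and Ftl1), against 23.2% of all tested genes, and for 4 in TG (Hamp2, Slc39a14, Tfr2 and Slc40a1), against 26.3%. For the interaction 0 were called by edgeR or DESeq2 (0.00656% of all genes by edgeR), and 2 had an unadjusted p under 0.05, again Hamp2 and Slc39a14, against 5.98% of all tested genes. The median log2 fold change of the 10 was 0.07 at ZT2 and 0.04 at ZT14 for genotype, and 0.02 in WT and 0.16 in TG for time, against medians within 0.01 of 0 for all tested genes. At ZT14, 1 of the 10 did not overlap between genotypes (Slc39a14), against 12.4% of all genes, and 2 did not overlap between times in TG (Tfr2 and Slc39a14), against 30.0%.

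Across the 12 libraries, Hamp and Hamp2 shared little of their variation, with a Pearson correlation of log2 CPM of -0.04, and 0.16 after group means were removed. Hamp followed Slc40a1 (0.54) and Ftl1 (0.56) most closely among the 10. The strongest value of all pairs of the 10 was that of Tfr2 and Fth1. They ran in opposite directions, with -0.76, and -0.90 after group means were removed. These values describe libraries that share scaling and depth. Among all tested genes, those most like Hamp were Bcl2l12 (0.87), Polr2h, Hint3, BC037034 and Ddx51. Those most like Hamp2 were Plek2 (0.88), Cox20, Pdcl3 and Arf5. Those most like Tfrc were the sulfate transporter gene Slc26a1 (0.96), the glutamine transporter gene Slc1a5 (0.92), Acsl3, Snx12 and Palm. No iron gene was in any of these 3 lists. The genes named were picked as the highest of 15244 over only 12 libraries, which by itself yields high values, and their relation to the iron genes was not tested.

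Other genes of iron metabolism, taken from 5 lists, gave calls for time and 0 for genotype. Of 76 tested list genes, 0 were called for genotype at ZT2, at ZT14 or for the mean of both times by edgeR or DESeq2. Of all tested genes, edgeR called 0.0722%, 0.0853% and 0.144%. Below an unadjusted p of 0.05 were 2, 9 and 4 list genes, against 7.56%, 6.91% and 8.82% of all tested genes. For time, 4 rose and 9 fell at ZT14 in WT, where 4.85% of all tested genes rose and 4.32% fell. In TG 2 rose and 8 fell, against 6.7% and 5.52% of all tested genes. For the interaction 0 were called by edgeR or DESeq2, where edgeR called 0.00656% of all tested genes. Of the 76, 9 were below an unadjusted p of 0.05, against 5.98% of all tested genes. The genes named have the smallest p of a list in a time contrast or in the mean genotype contrast. The other called genes were added after their values were seen, so that each call for time in WT or in TG is named. Averaged over genotypes, the contrast added later, 9 rose and 11 fell, where 22.5% of all tested genes were called. By edgeR, Epas1 (0.20, adjusted p = 0.0204), Slc25a28 (0.25, 0.026), Fkbp1a (0.16, 0.036) and Il6ra (0.47, 0.0441) were called in this contrast alone. They belong to the cellular iron, mitochondrial iron, BMP and SMAD, and IL-6 and STAT3 lists in that order.

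The BMP and SMAD genes, which set basal hepcidin, gave 0 calls among 20 tested for time in WT or in TG by edgeR or DESeq2. Of all tested genes, edgeR called 9.17% in WT and 12.2% in TG. Below an unadjusted p of 0.05 were 4 and 2 of the 20, against 23.2% and 26.3% of all tested genes. The median log2 fold change was -0.02 in WT and 0.01 in TG. The smallest p in WT was that of Fgl1, a liver-secreted protein that binds BMPs, at -1.13 (SE 0.43, adjusted p = 0.125 by edgeR), and in TG that of Smad7, an inhibitory SMAD, at 0.68 (SE 0.25, adjusted p = 0.098). With no filter beyond 1 read, Fgl1 in WT (adjusted p = 0.031 by edgeR) and Smad7 in TG (0.0326) were called, and Fgl1 also in a fit to the 6 WT libraries alone (0.0324). For genotype it was Smad5, a SMAD that carries the BMP signal, at -0.12 (SE 0.06, adjusted p = 0.597).

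Of 13 tested genes of the IL-6 and STAT3 list, 4 fell at ZT14 in WT and 0 rose, with a median of -0.93. Of all tested genes, 4.32% fell and 4.85% rose in that comparison. The fibrinogen genes Fga, Fgb and Fgg, made by hepatocytes in the acute phase, fell 2.46-fold, 2.25-fold and 2.45-fold. Fga went from 5217 ± 1471 to 2124 ± 81.7 CPM in WT (SD, n = 3 each), or -1.30 on the log2 scale (SE 0.19, edgeR adjusted p = 0.00133). Stat3, the transcription factor of this pathway, fell 1.91-fold. These 4 calls held with each library left out. In TG the list median was 0.07, and 5.52% of all tested genes fell. Of the list, Fga, Fgb, Fgg and the kinase gene Jak2 fell in TG, Fga by 1.75-fold. All 4 were lost without the 2 libraries that stood apart (adjusted p = 0.0631 to 0.15 by edgeR), and the adjusted p of Fga was 0.0662 to 0.0669 without TG ZT2 replicate 1 or TG ZT14 replicate 2. Fgg was lost without TG ZT2 replicate 1 or 2 or TG ZT14 replicate 2 (adjusted p = 0.0595 to 0.0898 by edgeR), and Jak2 without those or TG ZT14 replicate 3 (0.0542 to 0.0699). Fgb kept its call in 3 of 12 such fits, those without WT ZT2 replicate 1 or 2 or TG ZT2 replicate 3. The smallest p for genotype was that of Il6st, the shared signalling receptor, at -0.09 (SE 0.08, adjusted p = 0.777 by edgeR).

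Of 18 tested genes of cellular uptake, storage and IRE-IRP control, 2 rose and 4 fell at ZT14 in WT, and 1 rose and 3 fell in TG. Of all tested genes, 4.85% rose and 4.32% fell in WT, and 6.7% rose and 5.52% fell in TG. Slc39a8, which encodes ZIP8, a zinc and iron carrier related to ZIP14, fell 1.59-fold in WT, with -0.67 (SE 0.09, adjusted p = 0.000581 by edgeR), and 1.5-fold in TG. Ncoa4, the receptor that delivers ferritin to lysosomes, rose 1.34-fold in WT and 1.39-fold in TG. Aco1, which encodes IRP1, rose 1.33-fold in WT, from 227 ± 9.97 to 301 ± 11.6 CPM. Ireb2, which encodes IRP2, fell 1.23-fold in WT and 1.24-fold in TG. Steap3, a ferrireductase of endosomes, fell 1.49-fold in WT and 1.69-fold in TG, and Cp, the plasma ferroxidase ceruloplasmin, fell 1.42-fold in WT. The calls of Slc39a8 in both genotypes, Aco1 in WT, and Ncoa4 and Steap3 in TG held with each library left out. In WT, Ncoa4 was lost without ZT14 replicate 1 (adjusted p = 0.0619 by edgeR), Steap3 without ZT2 replicate 3 or ZT14 replicate 1 (0.0694 to 0.082), and Cp without ZT2 replicate 1 or ZT14 replicate 2 or 3 (0.0502 to 0.0607). Ireb2 was lost in 6 of 12 such fits in WT (adjusted p = 0.0577 to 0.17 by edgeR), those without any WT library but ZT14 replicate 2 or without TG ZT2 replicate 3. In TG it was lost in 5 (0.0587 to 0.0851), those without any TG library but ZT14 replicate 2, and also when both libraries that stood apart were left out (0.12). For genotype the smallest p was that of Epas1, which encodes HIF-2α, at -0.13 (SE 0.05, adjusted p = 0.518).

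Of 14 tested genes of mitochondrial iron and iron-sulfur clusters, 2 rose in WT, and 1 rose and 1 fell in TG. Of all tested genes, 4.85% rose in WT, and 6.7% rose and 5.52% fell in TG. Alas1, the first enzyme of heme synthesis, went from 98.3 ± 31.8 to 760 ± 259 CPM in TG (SD, n = 3 each), a 7.74-fold rise (log2 2.95, SE 0.48, edgeR adjusted p = 0.0021) that held with each library left out. In WT it went from 200 ± 139 to 548 ± 235 CPM, with 1.45 (SE 0.46, adjusted p = 0.0692). Without WT ZT2 replicate 1 the WT difference was 2.18 and was called (adjusted p = 0.0103), and over the other fits with 1 library left out it ran from 1.06 to 1.68 and was not called. With no filter beyond 1 read it was called at 1.46 (adjusted p = 0.00734). The interaction was 1.5 (SE 0.64, adjusted p = 0.795), so the genotypes were not shown to differ in this. The WT risers were Slc25a37, the mitochondrial iron importer mitoferrin-1, at 1.60-fold, and Glrx5, a carrier of iron-sulfur clusters, at 1.47-fold. Slc25a37 was lost without WT ZT2 replicate 1 or 3 or WT ZT14 replicate 1 or 3 (adjusted p = 0.0582 to 0.0854 by edgeR), and Glrx5 without any WT library but ZT14 replicate 2 (0.0578 to 0.118). Lyrm4, a subunit of the cluster assembly complex, fell 1.43-fold in TG, and the call was lost in 9 of 12 fits with 1 library left out, all but those without WT ZT2 replicate 1 or 3 or TG ZT2 replicate 3 (adjusted p = 0.0604 to 0.176 by edgeR). It was also lost without the 2 libraries that stood apart (adjusted p = 0.174) and in a fit to the 6 TG libraries alone (adjusted p = 0.104). For genotype the smallest p was that of Glrx5, at -0.25 (SE 0.10, adjusted p = 0.51).

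Of 11 tested genes of heme capture, heme breakdown and iron recycling, 1 fell in WT, where 4.32% of all tested genes fell. In TG 0 were called by edgeR or DESeq2, where edgeR called 12.2% of all tested genes. In TG 1 of the 11 was below an unadjusted p of 0.05, against 26.3% of all tested genes. The WT call was Lrp1, the receptor for heme bound to hemopexin, which fell 1.29-fold and was lost without WT ZT2 replicate 1 or 3 or WT ZT14 replicate 1 or 3 (adjusted p = 0.0505 to 0.139 by edgeR). In TG the smallest p was that of Hp, which encodes the hemoglobin scavenger haptoglobin, at 0.48 (SE 0.22, adjusted p = 0.181). For genotype it was Hmox2, the constitutive heme oxygenase, at -0.18 (SE 0.07, adjusted p = 0.481).

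**Figure D4:**
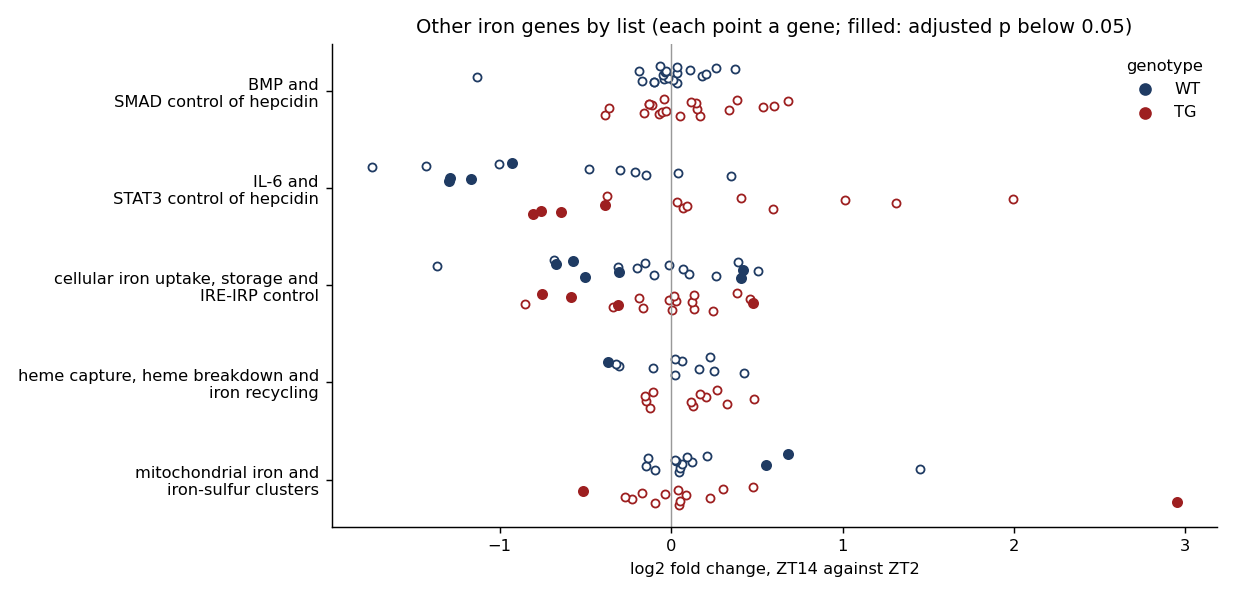
Log2 fold change of ZT14 against ZT2 (x axis) for the tested genes of 5 iron lists (y axis), in WT (blue, upper of each pair) and TG (red, lower). Each point is a gene, and filled points have an adjusted p below 0.05 by edgeR. The WT fibrinogen genes are the filled IL-6 and STAT3 points left of -1, and Alas1 in TG (2.95) is the point at the far right.

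How firmly reads could be assigned differed between the 10 genes. Uniquely mapped reads made up 99.9% to 100% of the total for Tfr2, Hfe, Tfrc, Slc39a14, Fth1 and Slc40a1 in each library. The share was 69.6% to 73.5% for Hamp and 72.3% to 80.2% for Hamp2. In each library, the uniquely mapped reads of these genes equalled in number their unique reads across exon junctions. In WT ZT2 replicate 1 these were 7155 of 7175 junction reads for Hamp and 279 of 280 for Hamp2. Why their other reads did not map uniquely was not tested. The share was 25% to 27.7% for Ftl1, of which the genome holds processed copies, and 14.5% to 15.4% for Trf. For Trf in that library, 39214 of 39216 unique reads crossed exon junctions. The named light-chain copies had few reads, at most 57 in a library. Trf shares its strand and span with Gm20425, which was counted at 33 to 168 reads. Hamp and Hamp2 lie within Gm44662 on the opposite strand, counted at 82 to 372 reads, and strand use in counting is not given in the sources used here, so these reads cannot be told apart. With uniquely mapped reads alone, Hamp2 differed between genotypes at ZT2 by 1.17 and Tfrc between times in WT by 0.87 (adjusted p = 0.0239 by edgeR).

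**Figure D5:**
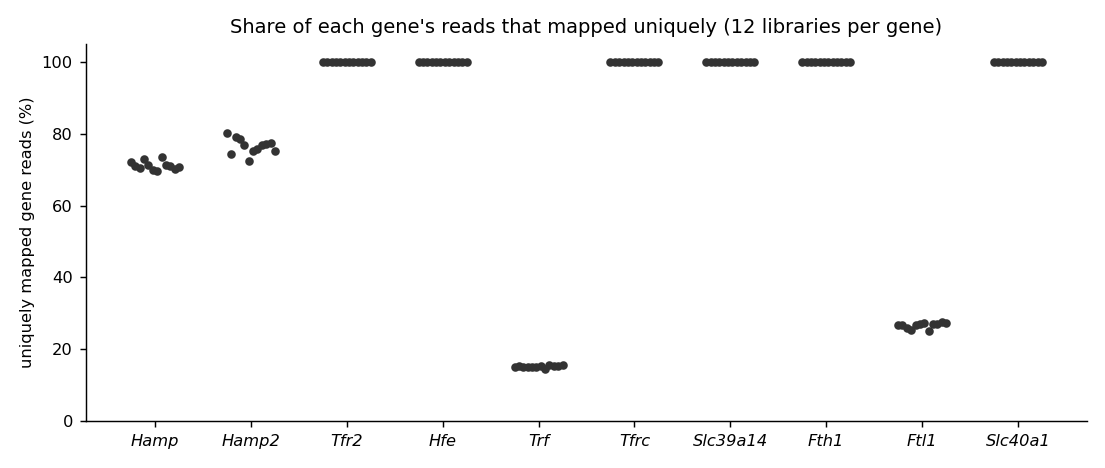
Uniquely mapped reads as a percentage of total gene reads (y axis, from 0) for the 10 iron genes (x axis), with 1 point per library and 12 points per gene. Trf (14.5% to 15.4%) and Ftl1 (25% to 27.7%) lie low, Hamp and Hamp2 between, and the other 6 near 100%.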

How the data were processed

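Poly(A) RNA of 12 liver samples was sequenced from 850 ng of total RNA each, per the labels' protocols. The deposited tables hold read counts per gene (total, uniquely mapped, exon and intron), RPKM and TPM, per the file headers. The submitters' processing notes name mm10 and GRCm38. The aligner is not given in the sources used here, nor is strand use. Total gene reads, which equal exon plus intron reads in each row, were tested with edgeR 4.0.16 in R 4.3.3: filterByExpr (minimum count 10, minimum total 15), TMM, and glmQLFit and glmQLFTest on 12 samples in 4 groups without covariates, with Benjamini-Hochberg adjustment over 15244 genes and calls at adjusted p below 0.05. SE is the absolute log2 fold change divided by the square root of F. Log2 fold changes within 1 SE of 0 are not printed, except for Hamp. CPM are TMM-scaled. The deposited RPKM values were not used, and the deposited TPM values served only to compare levels between genes. Depth was 16035121 to 23981021 reads.

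The 10 genes, the pathway and marker lists and the alternatives were chosen with earlier results of these data known. Named genes are all 10, the 3 with the smallest p of each list in the time contrasts and the averaged genotype contrast, of which fewer are printed, and the 5 most correlated with Hamp, Hamp2 and Tfrc, apart from a gene that is not reported here. Beside these, all list genes called for time in WT, in TG or averaged over genotypes were named after their values were seen. Alternatives were RLE size factors, DESeq2 1.42.0, no filter beyond 1 read, uniquely mapped or exon reads, models of only the 6 samples compared, a replicate block, each library left out, and the omission of the 2 libraries that stood apart. The procedure was tested on simulated data. Libraries within a group differed beyond sampling noise (chi-square over degrees of freedom 9.85 to 90.9). Promoters are RefSeq windows and transcripts are from GENCODE M21; Trf, Slc40a1 and Slc39a14 have no window printed or searched.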

Additional observations from a re-analysis of the deposited data

How the results depend on the processing

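In WT over time, 0 to 1 of the 10 genes were called over the fits without 1 library (Tfrc or none), and in TG over time 0 to 1 (Slc39a14 without WT ZT2 replicate 1, Slc40a1 without TG ZT2 replicate 2, Hamp2 without TG ZT14 replicate 3). With no filter beyond 1 read 1 was called in TG (Hamp2, -1.03, adjusted p = 0.0467 by edgeR) and 2 for the mean of both genotypes (Hamp, 0.86, and Tfrc), where the fits without 1 library called 1 to 2 (Hamp without WT ZT2 replicate 1, Ftl1 without TG ZT2 replicate 2). In those fits the log2 fold change of Hamp for genotype ran from -0.82 to 0.26 at ZT2, from -0.48 to 0.37 at ZT14 and from -0.43 to 0.11 for their mean, and its interaction from -0.31 to 0.76; without the 2 libraries that stood apart its ZT14 value was 0.016. Slc39a14 over time in WT ran from -0.36 to 0.011. The log2 ratio of Hamp2 to Hamp in TG less WT ran from -0.0075 to 0.59, the Ftl1 to Fth1 ratio from 0.016 to 0.13, or -0.017 without the 2 libraries, and its time difference from 0.23 to 0.34. The causes were not tested. Pairing of samples by the replicate numbers of the labels was not shown: 2 of 18 same-numbered pairs correlated above 0.1 (-0.25 to 0.15), as did 6 of 36 other pairs. With 3 libraries a group this check cannot exclude pairing. With a replicate block 1 gene was called in TG over time (Slc39a14, 0.47, adjusted p = 0.0392 by edgeR) and the other member counts did not change, while Ireb2 in WT (0.057) and Lyrm4 in TG (0.0622) lost their calls. In the lists, counts of calls ran from 3 to 7 against 6 for cellular iron in WT, from 0 to 7 against 4 for IL-6 and STAT3 in TG, from 0 to 3 against 2 for mitochondrial iron in WT, from 0 to 1 against 0 for BMP and SMAD in WT and in TG, and from 0 to 1 against 1 for heme in WT. With no filter beyond 1 read Ireb2 was lost in WT (adjusted p = 0.109 by edgeR) and in TG (0.0727), and Lrp1 in WT (0.0693). In fits to the 6 libraries compared, Ireb2 was lost in WT (0.0707) and Fgb in TG (0.0707). Over all genes, the counts for genotype at ZT2, at ZT14 and for the mean were 56, 50 and 73 by DESeq2 and 43, 41 and 61 with no filter beyond 1 read, against 11, 13 and 22. With 3 libraries a group, the SE of Hamp, 0.49 to 0.50 in each pairwise comparison, limits what could be detected for it.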
